A study of Sus scrofa with 9 samples.

Results

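Oxidative phosphorylation genes were followed in RNA-seq libraries of pig blastocysts, the embryo stage with an outer trophectoderm, an inner cell mass and a fluid-filled cavity. A locus was taken as a member where its KEGG annotation in the authors' deposited table held the term for oxidative phosphorylation but not those for the lysosome or carbon metabolism, and where it had a transcript matching a known gene structure. Of 88800 loci, 101 carried the term, 10 were left out for the lysosome or carbon metabolism, and 91 were members. The 91 members lay on 19 chromosomes of the nucleus. None lay on the mitochondrial chromosome, whose 5 loci carried no KEGG term and are described apart.

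The tables held 9 FPKM columns, 3 named Uninjected, 3 named Sham_water and 3 named INO80_siRNA. INO80 is the ATPase of a chromatin remodelling complex, and siRNA is a short double-stranded RNA that targets a transcript for degradation. The labels described 3 embryo samples with no siRNA, 3 with a control siRNA and 3 with an INO80 siRNA. The last 3 samples carried titles naming a water sham injection, so that the column names Sham_water and INO80_siRNA both fell on the same 3 records, and no column was named for the control siRNA. The columns were therefore grouped by their own headers, the Uninjected columns were tied to samples by title, and what was injected in the Sham-water columns is known only from that name. The labels gave neither the breed, the age in days, the number of embryos per library nor whether libraries came from separate collections, so p-values measure the spread between libraries, which may be technical.

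Oxidative phosphorylation passes electrons from NADH and succinate along complexes I to IV of the inner mitochondrial membrane to oxygen, and the proton gradient built on the way drives ATP synthase, complex V. Most subunits are encoded in the nucleus, and a few core subunits of complexes I, III, IV and V are encoded by mitochondrial DNA. In mammalian embryos mitochondria are inherited from the oocyte, and ATP production by this route is known to rise towards the blastocyst, when the trophectoderm pumps ions to expand the cavity. The KEGG pathway also holds the vacuolar ATPase, which uses ATP to acidify compartments such as endosomes, and a few other ion pumps and phosphatases.

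Members were among the most abundant transcripts of the blastocyst libraries. Over the 9 libraries 64 of the 91 members (70.3%) had a mean of at least 100 FPKM, against 3.08% of the 17065 annotated loci, and 10 members had a mean of at least 1000 FPKM. FPKM is the number of sequenced fragments per unit of transcript length, scaled to the mapped fragments of the library, so levels of different genes are set side by side per length. The median member had a mean level of 247 FPKM and the median annotated locus 0.969 FPKM. Members took between 1.98% and 6.63% of the summed FPKM of a library, with the lowest share in INO80 siRNA library 3 and the highest in INO80 siRNA library 2. In 7 of the 84 members that passed a filter on low values the main transcript averaged over 1.5 times the value of its locus, among them COX7B and ATP5G3, so that locus values understate these genes. No depth is given here, since the tables hold no read counts and their coverage columns were not used.

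The targeted gene did not separate the columns. INO80, at chr1:145362748-145504969 of the build of the deposited tables, was listed, for libraries 1 to 3 in order, at 0.737, 1.09 and 1.92 FPKM in the Uninjected libraries, 1.72, 0.716 and 1.9 in the Sham-water libraries and 0.331, 1.37 and 2.18 with INO80 siRNA; every triplet of values below keeps this order. All 3 groups overlapped. The log2 difference of INO80 siRNA minus Sham-water was -0.14 (SE 0.52, 95% interval -1.27 to 0.98, limma adjusted p = 0.913), so that a loss of the transcript in the columns named for the siRNA was not detectable at this low level, and the interval spans losses as well as gains. Of the trophectoderm keratins, KRT8 lay between 631 and 4315 FPKM and KRT18 between 634 and 5946 FPKM, while KRT19 lay between 0.254 and 4.56 FPKM. Of the epiblast genes, POU5F1 lay between 17.6 and 126 FPKM and TDGF1 between 4.29 and 30.6 FPKM, SOX2 was listed at 0 in 6 of 9 libraries and at 1.36 FPKM at most, and NANOG matched no locus. Of 8 cumulus and granulosa cell names only 4 were found, and each of these stayed under 1 FPKM in every library. Of 6 blood and immune cell names 4 were counted as found, with 1 under 1 FPKM in every library. CD14, which shares a merged locus with NDUFA2, was not among these 4. The sum of the 4 lay between 2.27 and 13.3 FPKM in Uninjected, 3.61 and 10.7 FPKM in Sham-water and 7.18 and 25.3 FPKM in INO80 siRNA libraries. HBB reached 23.6 FPKM in INO80 siRNA library 2 and CD68 8.32 FPKM in library 3 of that group, and the part of these markers in the results was not tested. Between 50.3% and 86.1% of the signal (FPKM times transcript length) of a library fell on transcripts matching a known gene structure. The lowest share was in INO80 siRNA library 3 and the highest in Sham-water library 3. Across annotated loci, libraries of the same group correlated at a mean Pearson r of 0.896 on the log2 scale (9 pairs) and libraries of different groups at 0.889 (27 pairs).

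Complex I, the NADH dehydrogenase that feeds most electrons into the chain, contributed 31 members, and all 31 passed the filter, set at 1 FPKM for the mean of at least 1 group. Their mean levels lay between 37.0 and 617 FPKM with a median of 303 FPKM. NDUFA13, an accessory subunit also known as GRIM-19, was the most abundant at 621, 594 and 716 FPKM in the Uninjected libraries, 692, 634 and 632 in the Sham-water libraries and 343, 894 and 427 with INO80 siRNA. NDUFAB1, the mitochondrial acyl carrier protein, followed at 973, 369 and 674 FPKM in the Uninjected libraries, 712, 375 and 531 in the Sham-water libraries and 563, 692 and 512 with INO80 siRNA. The least abundant was the locus ENSSSCG00000023365, which the table's Gene Ontology terms place in the complex, at 15.5 to 85 FPKM. Its 3 Sham-water values of 85, 41.9 and 38.6 FPKM lay above its 3 Uninjected values of 23, 19.3 and 28.2 FPKM. NDUFV1, which binds the flavin that accepts electrons from NADH, was listed between 41.3 and 224 FPKM. NDUFA2 shares a merged locus with CD14 and IK, and the locus value of between 21.8 and 98 FPKM is uncertain, since the NDUFA2 transcript alone averaged 5.93 times the locus value.

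Complex III, the cytochrome bc1 complex that passes electrons from quinol to cytochrome c, had 8 members with a median mean level of 661 FPKM. Its small subunit UQCR10 was listed far above its large core proteins. UQCR10 reached 2088, 1293 and 2177 FPKM in the Uninjected libraries, 1661, 1142 and 1206 in the Sham-water libraries and 1428, 3719 and 564 with INO80 siRNA. ENSSSCG00000003903, placed in complex III by its Gene Ontology terms, was listed at 902, 645 and 1029.6 FPKM in the Uninjected libraries, 795, 602 and 582 in the Sham-water libraries and 1636, 1255 and 700.1 with INO80 siRNA. UQCRC2, one of the pair of large core proteins, was lowest at 119, 99.3 and 55.1 FPKM in the Uninjected libraries, 91.4, 66 and 118 in the Sham-water libraries and 15.6, 61.3 and 62.2 with INO80 siRNA. Every UQCRC2 value lay below every UQCR10 value. UQCRFS1, the Rieske iron-sulphur protein, ranged from 28.5 to 116 FPKM.

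Complex IV, cytochrome c oxidase, had 16 members, of which 14 passed the filter, with a median mean level of 711 FPKM. COX5B, a nuclear-encoded subunit, was the most abundant member of all, at 1947, 944 and 2268 FPKM in the Uninjected libraries, 1942, 1096 and 1369.7 in the Sham-water libraries and 2487, 3142 and 969.9 with INO80 siRNA. Libraries 1 and 2 of INO80 siRNA were the highest for COX5B, library 3 was among the lowest, and the groups overlapped. COX15, which makes the heme A of the enzyme, was much lower at 2.8 to 15.8 FPKM. Its 3 INO80 siRNA values of 7.75, 7.35 and 2.8 FPKM lay below all 6 other values.

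Paired isoforms of complex IV were listed with 1 form far above the other. COX6A1, the widely expressed form, averaged 1611 FPKM and COX6A2, known from heart and skeletal muscle, 4.48 FPKM. COX7A2 averaged 1109 FPKM, whereas the muscle form COX7A1 averaged 1.88 FPKM and was listed at 0 in 3 libraries. NDUFA4, first assigned to complex I and now known as a subunit of complex IV, averaged 771 FPKM, and its relative NDUFA4L2, known from hypoxic cells, never exceeded 0.384 FPKM. COX4I1 averaged 651 FPKM. COX4I2, COX6B1, COX6B2 and ATP5G2 matched no member by name. COX8A ranged from 1008 to 2547 FPKM. COX8C, a form known in human from testis, was listed at 60.1, 89.9 and 45 FPKM in the Uninjected libraries, 0.212, 19.5 and 6.94 in the Sham-water libraries and 0.65, 189 and 0.422 with INO80 siRNA. All 3 Sham-water values of COX8C lay below the Uninjected ones, and of the INO80 siRNA values 2 lay under 1 FPKM and 1 was the highest of the 9.

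Complex V, ATP synthase, had 13 members, all of which passed the filter, with a median mean level of 409 FPKM. ATP5O, the subunit that joins the stalk to the catalytic head, was highest at 1640.5, 1029.9 and 1775 FPKM in the Uninjected libraries, 1670.0, 997 and 1264 in the Sham-water libraries and 1209, 1888 and 877 with INO80 siRNA. ATP5B, the catalytic beta subunit at chr5:23659084-23666696 of the tables' build, came next at 1148, 857 and 1259.7 FPKM in the Uninjected libraries, 1788, 1331 and 2265 in the Sham-water libraries and 371, 876 and 708 with INO80 siRNA. ATP5B was highest in the 3 Sham-water libraries, and 2 of the 3 INO80 siRNA values lay below every other library. ATP5A1, the alpha subunit that alternates with beta in the head, was listed at 1170.5, 1083 and 1012 FPKM in the Uninjected libraries, 1784, 1141 and 1532 in the Sham-water libraries and 655, 874 and 768 with INO80 siRNA. ATP5A1 lay lower in all 3 INO80 siRNA libraries than in any other library. ATP5G1 and ATP5G3 encode the same mature c subunit of the rotor and averaged 944 and 486 FPKM. The order given here is by locus value. By main transcript alone, ATP5G1 averaged 1412, ENSSSCG00000007524 1333 and ATP5I 1288 FPKM, against 1372 for ATP5O and 1175 for ATP5B. Loci of ATP5I and of ENSSSCG00000029171 (ATP synthase subunit f in the table's description) merge more than 1 annotated gene and are uncertain. The least abundant was ENSSSCG00000026548, another ATP synthase locus by its Gene Ontology terms, at 51.5 to 209.5 FPKM.

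The vacuolar ATPase contributed 13 members, of which 11 passed the filter, with a median mean level of 53.5 FPKM. ATP6V0E1, a membrane subunit, was highest at 402 to 778 FPKM. ATP6V1G3, a stalk subunit known in mammals from kidney, followed with 341, 70.6 and 650.3 FPKM in the Uninjected libraries, 175, 175 and 166 in the Sham-water libraries and 212, 824 and 75.8 with INO80 siRNA. ATP6V1G3 exceeded the widely expressed ATP6V1G1 in 8 of 9 libraries, and the brain form ATP6V1G2 stayed at or below 0.404 FPKM. ATP6V1B2, the widely expressed form of the B subunit of the catalytic head, was listed at 30.1, 51.4 and 42.1 FPKM in the Uninjected libraries, 52.8, 68.2 and 72.7 in the Sham-water libraries and 15.9, 22.2 and 14.1 with INO80 siRNA. All 3 INO80 siRNA values of ATP6V1B2 lay below all 6 others, and all 3 Sham-water values lay above all 3 Uninjected values. ATP6V1B1, the B form known from kidney, stayed between 0 and 2.05 FPKM. ATP6V1E2, known in mammals from testis, was listed at 0 in 6 libraries and was the lowest of the group.

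The other 9 members were mostly low. PPA1, which splits pyrophosphate, was listed at 49.8 to 142 FPKM. ATP4A, the catalytic subunit of the gastric proton pump, never exceeded 0.138 FPKM, and its partner ATP4B reached 7.48 FPKM. Loci ENSSSCG00000000047 and ENSSSCG00000021119 overlap on chromosome 5, carry respiratory chain terms in the table, and are uncertain because reads could be shared. ENSSSCG00000000047 was listed at 118 to 282 FPKM. ENSSSCG00000021119 was listed at 23.6, 25.8 and 21.1 FPKM in the Uninjected libraries, 15.8, 21.1 and 22.7 in the Sham-water libraries and 193, 405 and 20.4 with INO80 siRNA. Libraries 1 and 2 of INO80 siRNA stood far above the rest, and library 3 lay within the range of the other groups.

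**Figure D1:**
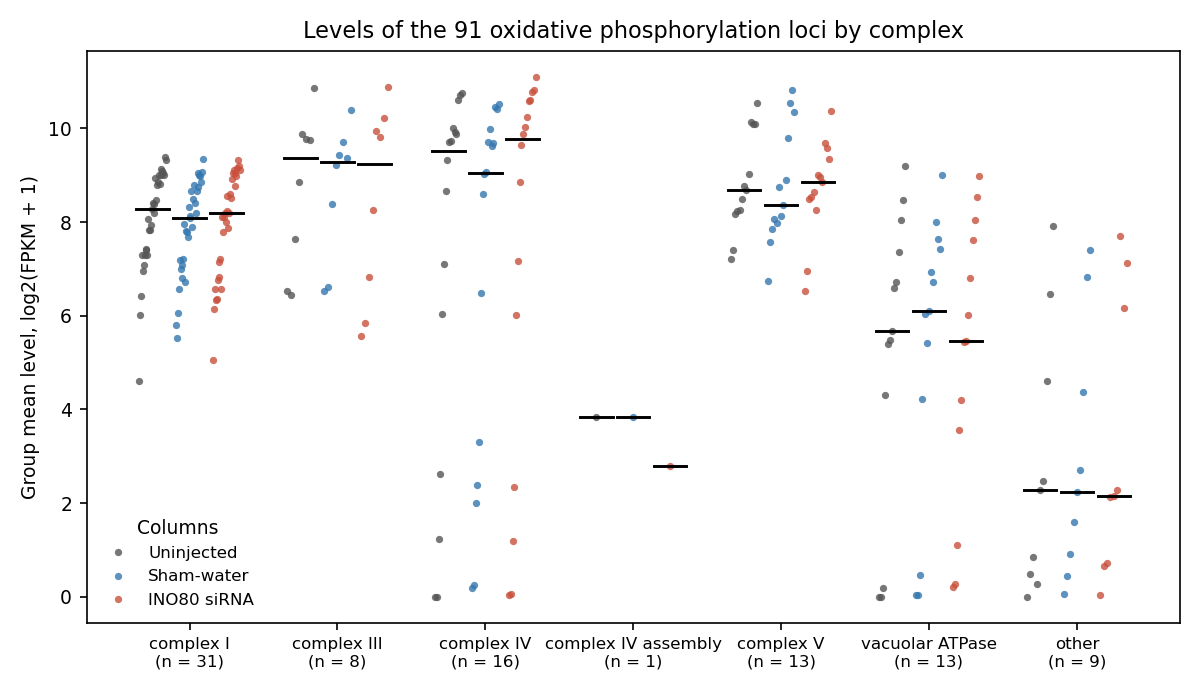
Mean level of each of the 91 members as log2(FPKM + 1), by complex and by column group; points are members (means of 3 libraries) and black lines are medians over members. Complexes I, III, IV and V sit mostly above the vacuolar ATPase, and the points of the 3 groups overlap within each of them. COX15, alone in its category, lies lower with INO80 siRNA (mean 5.97 FPKM) than in Sham-water (13.4 FPKM).

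The first comparison asked how members differed between the INO80 siRNA and Sham-water columns. No member passed the test. The smallest p-values belonged to members with lower values in the INO80 siRNA columns, among them ATP5B at 652 ± 257 FPKM against 1795 ± 467 (SD, n = 3 each) and UQCRC1, a large core protein of complex III, at 112 ± 90.3 against 333 ± 73.5 FPKM. Of the 14 complex IV members that passed the filter, 12 (85.7%) had a positive difference, against 27.7% of annotated and 72.5% of all loci. That count was 7 under quantile normalization, 0 with libraries scaled to a common median and 6 without INO80 siRNA library 2. Complexes I, III and V had 58.1%, 50% and 38.5% positive. Of annotated loci averaging 100 FPKM or more, 74.0% were positive where the main transcript was under 700 bases. The share was 52.4% from 700 to under 1200 bases and 23.5% at 1200 bases or more. The part of level and length in the complex IV count was not tested. Limma on log2(FPKM + 1) called 0 of 84 members at an adjusted p of 0.05, against 0.00149% of all 67107 loci and 0% of 9311 annotated loci. At an unadjusted p under 0.05, 1 member was higher and 5 were lower, which is 1.19% and 5.95% of members, against 0.516% and 6.79% of annotated loci.

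The 3 smallest p-values on the lower side belonged to ATP5B, ATP6V1B2 and UQCRC1. ATP5B differed by -1.52 on the log2(FPKM + 1) scale (SE 0.41, 95% interval -2.42 to -0.61, limma adjusted p = 0.459). ATP6V1B2 differed by -1.84 (SE 0.54, 95% interval -3.01 to -0.67, limma adjusted p = 0.459). UQCRC1 was listed at 153, 209.9 and 234 FPKM in the Uninjected libraries, 357, 251 and 392 in the Sham-water libraries and 33.5, 211 and 91.4 with INO80 siRNA. UQCRC1 differed by -1.90 (SE 0.61, limma adjusted p = 0.46), and its INO80 siRNA values lay below all 3 Sham-water values while overlapping the Uninjected ones. ATP5A1, named after its values were seen, differed by -0.94, and its groups did not overlap.

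On the higher side stood ENSSSCG00000021119, NDUFB1 and ENSSSCG00000003903. ENSSSCG00000021119 differed by 2.53 (SE 0.90, limma adjusted p = 0.46), carried by INO80 siRNA libraries 1 and 2. NDUFB1, a small accessory subunit of complex I, was listed at 233, 238 and 334 FPKM in the Uninjected libraries, 165, 148 and 0.331 in the Sham-water libraries and 364, 279 and 177 with INO80 siRNA. The value in Sham-water library 3 stood alone, and the difference of 3.04 (SE 1.42) became 0.74 without that library. ENSSSCG00000003903 differed by 0.79, or by -0.19 when libraries were scaled to a common median.

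In all, 7 members were lower without overlap (8.33%) and 2 were higher (2.38%), against 18.6% and 1.97% of annotated loci. The lower ones were ATP5B, ATP5A1, UQCRC1, UQCRC2, COX15, ATP6V1A and ATP6V1B2, and the higher ones were NDUFB1 and ATP6V1B1, named because their groups did not overlap. The median log2 difference was 0.07 over members, -0.34 over annotated loci and 0.57 over all loci, and the members' median turned to -0.29 under quantile normalization and -0.86 with libraries scaled to a common median, each of which moved the median of all loci to 0.03. The median of annotated loci was then -0.99 and -1.07. Without INO80 siRNA library 2, 12 members (14.3%) were lower at an unadjusted p under 0.05 in place of 5 and 0 were higher, against 6.34% and 0.826% of annotated loci in that fit. Without INO80 siRNA library 3, 10 members (12%) were higher and 5 (6.02%) lower, against 0.761% and 6.74% of annotated loci. Trophectoderm markers summed to between 1390.4 and 5406.5 FPKM in INO80 siRNA and between 3322 and 8656 FPKM in Sham-water libraries. KRT8 and KRT18 made up most of these sums. TFAP2C went the other way, at 16, 29.2 and 21.5 FPKM with INO80 siRNA and 12.8, 3.99 and 6.15 in Sham-water libraries. Every other marker of the list had a lower mean with INO80 siRNA. The part of these markers in the differences was not tested. In whole-embryo RNA fewer cells of a type and less RNA per cell cannot be told apart.

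**Figure D2:**
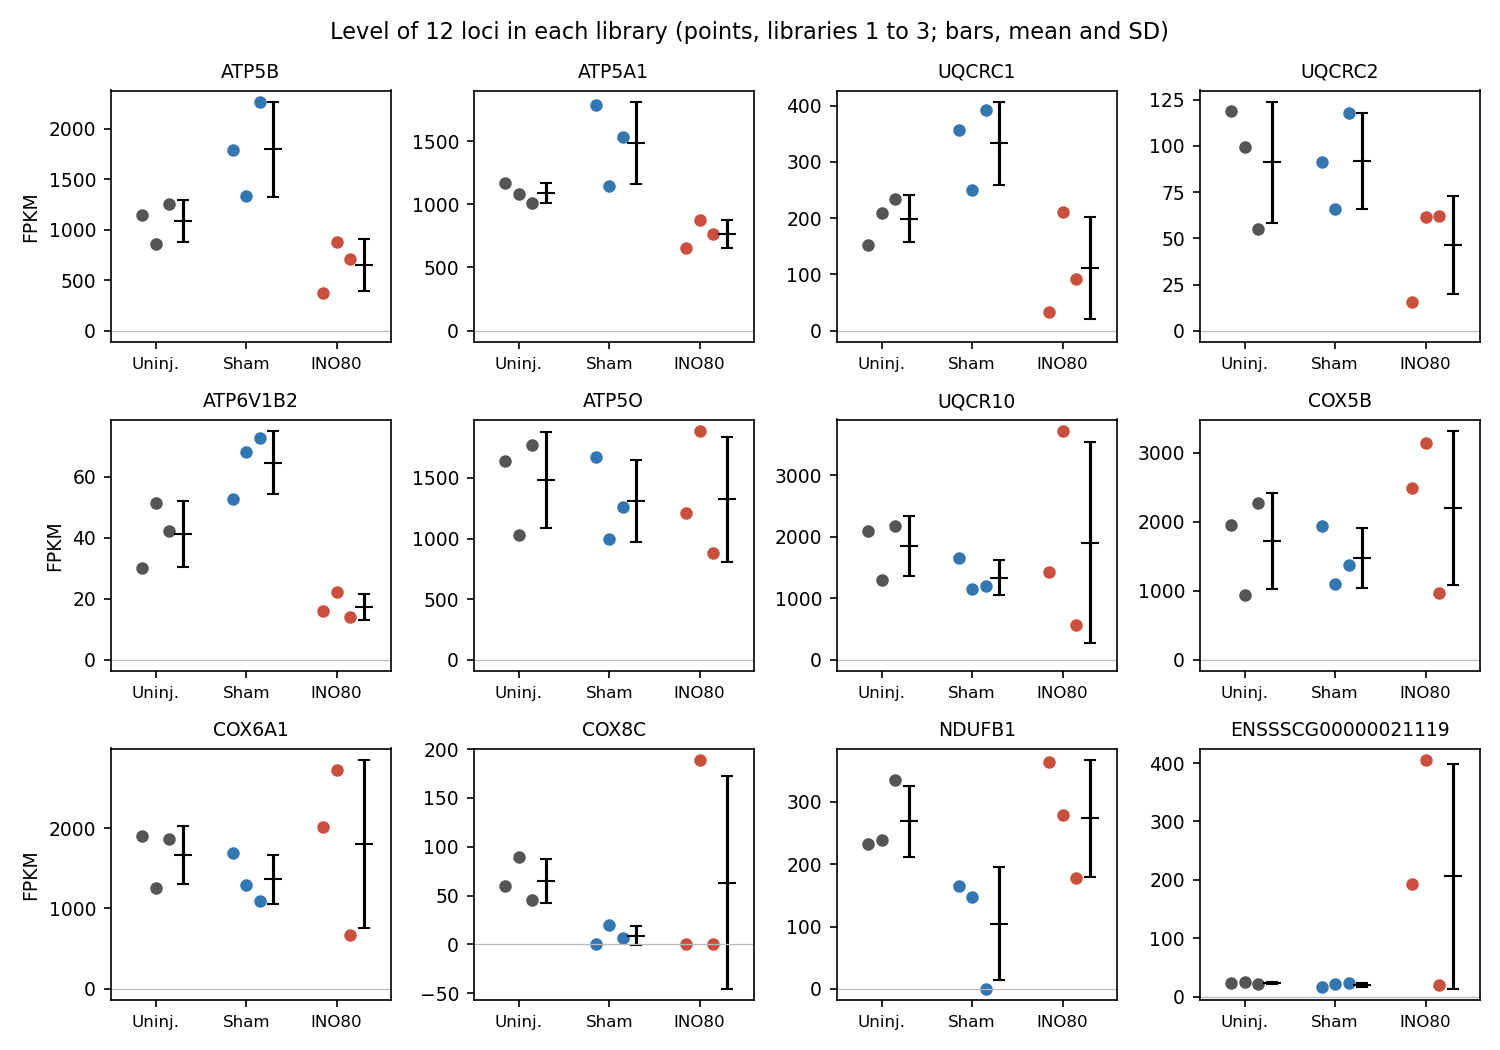
FPKM of 12 loci in each library (points, libraries 1 to 3 from left to right within a group) with the mean and SD of each group of 3 (black). ATP5B, ATP5A1 and ATP6V1B2 lie lower in all INO80 siRNA libraries than in any Sham-water library, while COX8C and NDUFB1 show single libraries and ENSSSCG00000021119 shows 2 libraries far from the others.

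The second comparison set the INO80 siRNA columns against the Uninjected columns, and it shares the INO80 siRNA libraries with the first. No member passed the test. ATP6V1B2 averaged 17.4 ± 4.25 FPKM against 41.2 ± 10.7 FPKM (SD, n = 3 each), and ATP4B, the beta subunit of the gastric proton pump, 3.41 ± 3.54 against 0.209 ± 0.363 FPKM. Limma called 0 of 84 members, against 0.00149% of all loci and 0% of annotated loci. At an unadjusted p under 0.05, 2 members were higher (2.38%) and 1 was lower (1.19%), against 0.376% and 1.4% of annotated loci.

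ATP4B was listed at 0, 0 and 0.628 FPKM in the Uninjected libraries, 1.12, 1.93 and 3.03 in the Sham-water libraries and 7.48, 0.978 and 1.77 with INO80 siRNA. Its difference of 1.61 (SE 0.60, limma adjusted p = 0.814) rested on levels of a few FPKM. ENSSSCG00000021119 differed by 2.29 and ATP6V1B1 by 0.87. ATP6V1B2 differed by -1.19 (SE 0.54, 95% interval -2.36 to -0.02, limma adjusted p = 0.814). ATP5B differed by -0.81 (95% interval -1.71 to 0.09) and UQCRC1 by -1.17, with overlapping groups in both. The 5 members that were lower without overlap (5.95%, against 8.6% of annotated loci) were ATP5A1, ATP6V1A, ATP6V1B2, COX15 and ENSSSCG00000000047. Another 2 were higher (2.38%, against 1.75%), namely ATP4B and ATP6V1B1. The median over members was -0.10, against -0.20 over annotated loci, and it was 0.21 without INO80 siRNA library 3. Without INO80 siRNA library 2, 10 members (11.9%) were lower at an unadjusted p under 0.05 in place of 1, against 2.54% of annotated loci in that fit.

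The third comparison set the Sham-water columns against the Uninjected columns, and shares libraries with both others. No member passed the test. NDUFA12, an accessory subunit of complex I, averaged 238 ± 40.1 FPKM in Sham-water and 489 ± 167 FPKM in Uninjected libraries (SD, n = 3 each), whereas ATP5B averaged 1795 ± 467 and 1088 ± 208 FPKM. Limma called 0 of 84 members, against 0% of all and of annotated loci. At an unadjusted p under 0.05 no member was higher and 1 was lower (1.19%), against 1.25% and 0.29% of annotated loci.

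NDUFA12 was listed at 675, 350.3 and 441 FPKM in the Uninjected libraries, 256, 193 and 267 in the Sham-water libraries and 271, 400.3 and 207 with INO80 siRNA. All 3 Sham-water values lay below all 3 Uninjected values, with a difference of -0.99 (SE 0.44, limma adjusted p = 0.915). NDUFB1 differed by -3.05, or by -0.76 without Sham-water library 3. COX8C differed by -3.45 (95% interval -7.01 to 0.12). ATP5B differed by 0.71 (95% interval -0.19 to 1.61), ENSSSCG00000023365 by 1.12 and ATP4B by 1.32. Groups did not overlap for 5 higher members (5.95%, against 8.63% of annotated loci), which were ATP5B, UQCRC1, ATP6V1B2, ATP4B and ENSSSCG00000023365. They did not overlap either for 5 lower members (5.95%, against 2.55%), which were NDUFA12, NDUFB1, NDUFA4, COX8C and ENSSSCG00000007524. The median over members was -0.14, against 0.16 over annotated loci, and it became 0.49 with libraries scaled to a common median.

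Members differed among themselves by transcript length. In INO80 siRNA minus Sham-water, 22 of 31 members with a main transcript of 1200 bases or more had a negative difference (median -0.68), while 20 of 27 under 700 bases had a positive one (median 0.26). Of annotated loci of the same lengths, 77.0% of 6817 had a negative difference and 45.3% of 966 a positive one. Annotated loci averaging 100 FPKM or more lay close to the members. Of these, 76.5% of 217 with 1200 bases or more were negative, against 71.0% of members. Under 700 bases, 74.0% of 123 were positive, against 74.1% of members. Spearman's rho of the difference with length was -0.45 over the 84 members, -0.33 in INO80 siRNA minus Uninjected and 0.44 in Sham-water minus Uninjected, comparisons that share libraries. The relation was as strong over the 525 annotated loci averaging 100 FPKM or more, at -0.45, -0.32 and 0.43, and weaker over the 9311 annotated loci at -0.11, -0.06 and 0.07. These are descriptions across genes of the same libraries, and genes are not independent replicates. ATP5B, UQCRC1 and ATP5A1 have main transcripts of 1767, 1586 and 1742 bases, and ATP5O and UQCR10 of 760 and 465 bases. The part of transcript length in the differences of these subunits was not tested.

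**Figure D3:**
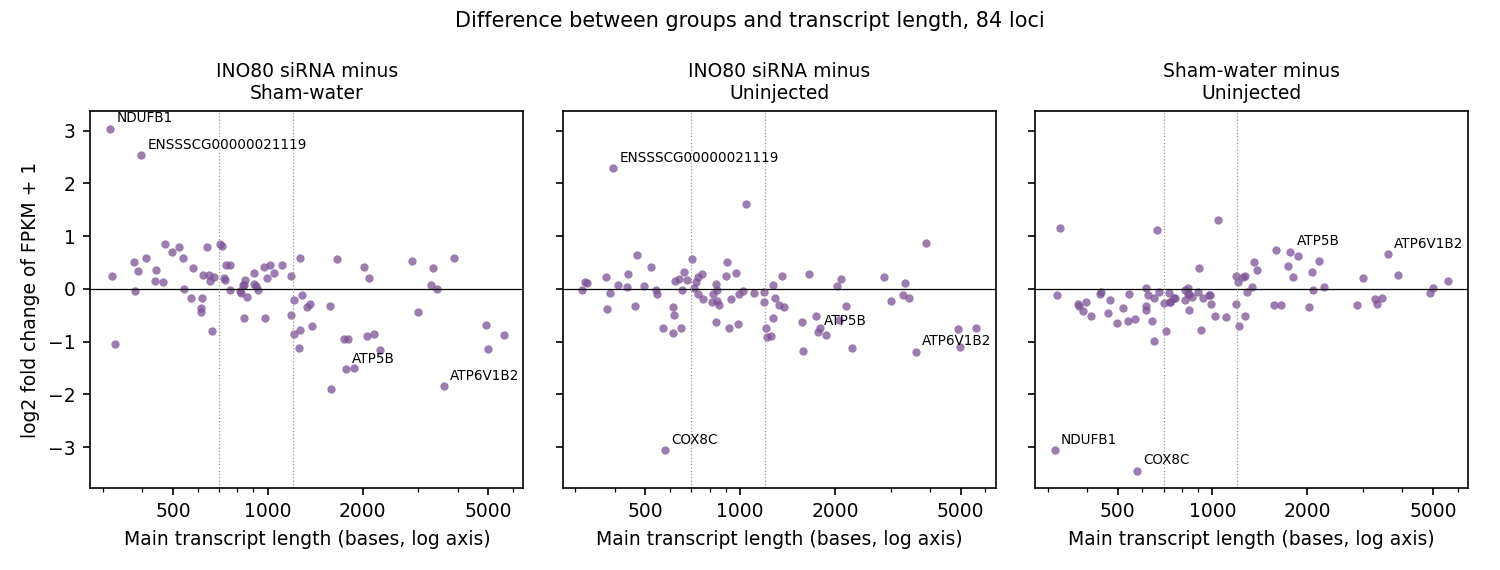
Log2 difference of FPKM + 1 between groups against main transcript length (log axis) for the 84 members that passed the filter, with dotted lines at 700 and 1200 bases. Longer members lie lower in both INO80 siRNA comparisons (rho -0.45 and -0.33) and higher in Sham-water minus Uninjected (rho 0.44).

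Subunits of the same complex did not keep a fixed ratio across libraries. The level of ATP5B over that of ATP5O was 0.700, 0.832 and 0.710 in Uninjected libraries 1 to 3, 1.07, 1.34 and 1.79 in Sham-water libraries, and 0.307, 0.464 and 0.808 in INO80 siRNA libraries. The level of UQCRC1 over that of UQCR10 was 0.0734, 0.162 and 0.107, then 0.215, 0.220 and 0.325, then 0.0235, 0.0566 and 0.162 in the same order. Both ratios were highest in the Sham-water libraries. Between the long subunits ATP5B and ATP5A1 the ratio varied less, from 0.566 to 1.48.

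Single libraries of the INO80 siRNA group lay at opposite ends. Of the 84 members, 37 (44.0%) had their highest value of the 9 libraries in INO80 siRNA library 2, where 5.2% of annotated loci had theirs. In INO80 siRNA library 3, 30 members (35.7%) had their lowest value, against 9.24% of annotated loci, and in library 1 of that group 18 (21.4%) did, against 28.2%. The median member deviated from its mean over the 9 libraries by 0.57 in library 2 and by -0.59 in library 3 on the log2 scale. In library 1, members of 1200 bases or more deviated by -0.50 and those under 700 bases by 0.08. Summed over members, the level was 36179.9 ± 8105 FPKM in Uninjected, 32691 ± 7955 FPKM in Sham-water and 37407 ± 16458 FPKM in INO80 siRNA libraries (SD, n = 3 each), and the groups overlapped.

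**Figure D4:**
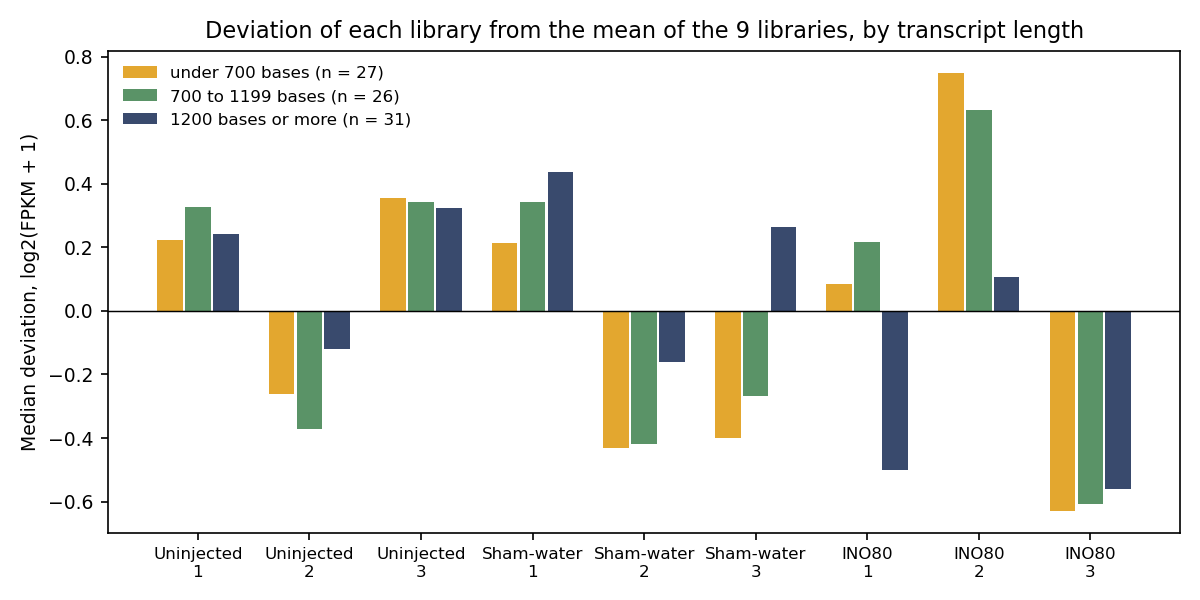
Median deviation of members from their mean over the 9 libraries, on the log2(FPKM + 1) scale, for short, middle and long main transcripts in each library (bars). INO80 siRNA library 2 is high for short members (0.75), library 3 is low at every length (-0.63 to -0.56), and library 1 is low for long members (-0.50).

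Mitochondrial-encoded subunits could be followed only as merged loci. Of the 5 loci of the mitochondrial chromosome, 3 join several genes, and none is a clean value for 1 subunit. The locus with ND1 and ND2, core subunits of complex I that help pump protons, was listed at 13.4, 8.37 and 0.000427 FPKM in the Uninjected libraries, 8.11, 88 and 2450.1 in the Sham-water libraries and 881, 3.75 and 77.3 with INO80 siRNA. Its ND1 transcript was listed at 12572 FPKM in Sham-water library 3 and at 0 in every other library. The locus named for ND5, another proton-pumping subunit, was listed at 57.7, 29.6 and 869 FPKM in the Uninjected libraries, 29.1, 534 and 57.8 in the Sham-water libraries and 616, 60.6 and 68.7 with INO80 siRNA. It held assembled transcripts of 9912 and 8732 bases that span many genes. Its only transcript matching a known gene structure was 69 bases long and named for another gene. The locus named for ND6, ND4L and the complex III subunit CYTB was listed at 28.6, 11.1 and 16.2 FPKM in the Uninjected libraries, 27.8, 39.6 and 50.5 in the Sham-water libraries and 91.4, 6.31 and 16.9 with INO80 siRNA. Its transcripts labelled ND4L and CYTB lay on the strand opposite those genes, and the latter reached 0.508 FPKM at most. The value of this locus is therefore no level of ND4L or CYTB. High values were scattered over single libraries of all 3 groups, and the groups overlapped for each of these 3 loci. The limma adjusted p lay between 0.52 and 1 over the 5 loci and 3 comparisons. Loci of the mitochondrial chromosome took between 0.055% and 2.22% of the signal of a library. Reads over overlapping genes of both strands could not be told apart, and nothing in the sources used here says how such reads were assigned.

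**Figure D5:**
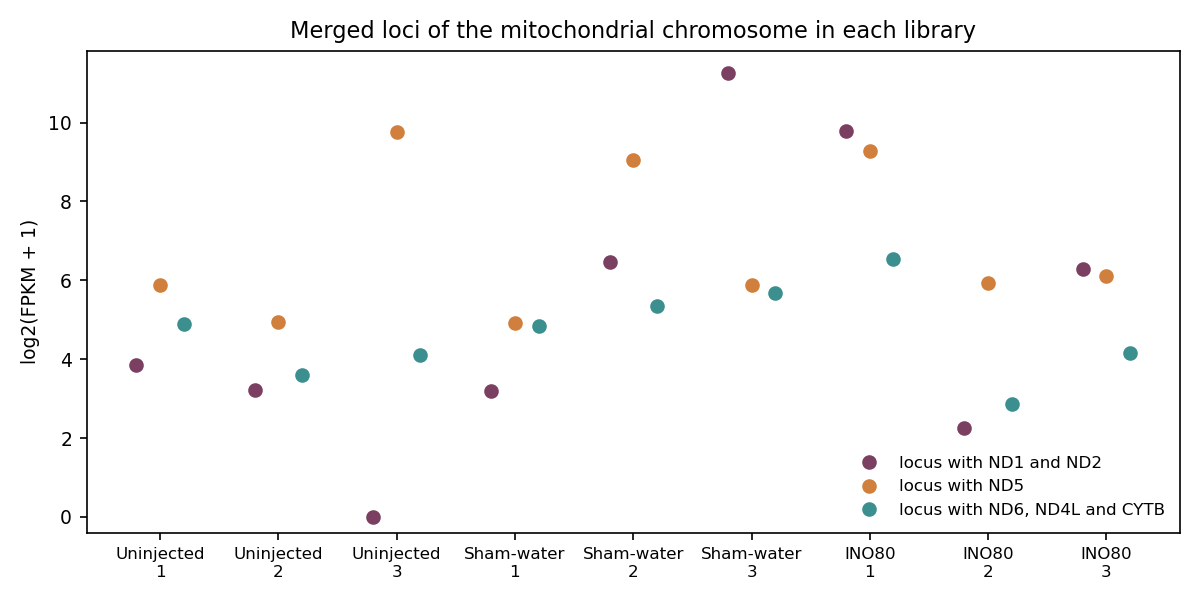
Level of the 3 merged loci of the mitochondrial chromosome that carry names of respiratory chain genes, as log2(FPKM + 1) in each library (points). None is a clean value for 1 subunit. High values of the locus with ND1 and ND2 stand in Sham-water library 3 (2450.1 FPKM) and INO80 siRNA library 1 (881 FPKM), and no group is uniformly high.

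Other genes of the pathway were read from lists of their own. Complex II, succinate dehydrogenase, lies outside the rule because its genes also carry carbon metabolism. SDHB, its iron-sulphur subunit, was listed at 438, 332 and 471 FPKM in the Uninjected libraries, 581, 317 and 416 in the Sham-water libraries and 304, 372 and 284 with INO80 siRNA. SDHC, a membrane anchor, differed by -2.34 in INO80 siRNA minus Sham-water (limma adjusted p = 0.46). Of 12 carriers and shuttles found of 17 names, 0 passed the test and 3 were lower at an unadjusted p under 0.05 in that comparison (25%, against 6.79% of annotated loci), with a median of -0.76 against -0.34. The mitochondrial phosphate carrier SLC25A3 was listed at 624, 481 and 597 FPKM in the Uninjected libraries, 1047, 625 and 992 in the Sham-water libraries and 250.2, 458 and 381 with INO80 siRNA. VDAC1, the main channel of the outer membrane, was listed at 245, 201 and 284 FPKM in the Uninjected libraries, 375, 192 and 250.1 in the Sham-water libraries and 90.3, 121 and 93.9 with INO80 siRNA. All 3 INO80 siRNA values of SLC25A3 and of VDAC1 lay below all 6 others. VDAC1 differed by -1.37 from Sham-water and by -1.25 from Uninjected (limma adjusted p = 0.46 and 0.814).

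Of 35 assembly factor names, 25 loci were found and tested, and 0 passed the test in any comparison. ECSIT, a complex I assembly factor, differed by -1.88 in INO80 siRNA minus Sham-water (limma adjusted p = 0.46), with 11, 55.5 and 25.7 FPKM against 91.9, 73.7 and 128 FPKM. The list's median was -0.25 in that comparison, against -0.34 over annotated loci. Of 19 names of mitochondrial expression and biogenesis, 13 loci were found, 12 were tested and 0 passed the test, with a median of -0.15. Among the 10 loci left out for the lysosome or carbon metabolism, 9 had a negative difference in that comparison (90.0%, against 72.3% of annotated loci) and 3 were lower at an unadjusted p under 0.05 (30.0%, against 6.79%). One of them was ATP6V0C, the proton-carrying ring subunit of the vacuolar ATPase, at 839, 773 and 1261 FPKM in the Uninjected libraries, 1246, 1253 and 1801 in the Sham-water libraries and 221, 1124 and 249 with INO80 siRNA.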

How the data were processed

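FPKM per locus and per transcript for 9 libraries were deposited by the authors. The submitters' processing notes list fastp, HISAT2, StringTie and edgeR with no order or settings. They also list GRCh38.p10, which is a human build; chromosome 1 of the tables reaches 315248247, past the last gene end of 274280750 in Sscrofa11.1, so positions are in an unnamed build. Transcript lengths came from the deposited transcript table, whose 9 coverage columns were not used. Of 31 Ensembl IDs naming members, 13 matched a symbol. Members named by ID were placed in complexes by the deposited descriptions or Gene Ontology terms. NDUFA4 and NDUFA4L2 were placed in complex IV, although the planned list rule put names starting with NDUF in complex I.

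Columns were grouped by header, as the same 3 records carry a sham title and an INO80 siRNA characteristic. Limma 3.58.1 (R 4.3.3, trend, robust) was fitted on log2(FPKM + 1) to 67107 loci averaging 1 FPKM or more in a group, with Benjamini-Hochberg adjustment over all loci and a threshold of 0.05; 84 members entered and 7 did not. The fit was tested on simulated data. Log differences understate changes of low genes. Members and lists were chosen with earlier results of these data known. Named members were ATP5B, the 2 highest and the lowest of each complex, the 3 smallest p-values in each direction and isoform pairs; others, and the length bins, were chosen after values were seen. Same-numbered libraries were checked for pairing. Sequences and promoter motifs were not analysed here. Alternatives changed the scaling, filter, pseudocount, trend, loci tested, replicate block, groups fitted, member rule and libraries. 1 member is counted but not reported here by name.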

Additional observations from a re-analysis of the deposited data

How the results depend on the processing

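No member passed the test in any comparison under any of the 20 alternatives run. Of 356 differences of named members recomputed, 355 kept their direction and stayed past no threshold, and ENSSSCG00000003903 in INO80 siRNA minus Sham-water reversed to -0.19 with libraries scaled to the median library; the cause was not tested. That scaling also moved the median of members to -0.86 in INO80 siRNA minus Sham-water and to 0.49 in Sham-water minus Uninjected, while the other medians moved by less than the SD between libraries of a group, 0.43. With 1 library left out at a time, these medians ranged from -0.21 to 0.26, from -0.36 to 0.21 in INO80 siRNA minus Uninjected, and from -0.36 to 0.00075 in Sham-water minus Uninjected. The adjusted p of ATP5B in INO80 siRNA minus Sham-water ranged from 0.125 to 0.831, and that of ATP6V1B2 from 0.0709, with annotated loci alone, to 0.831.

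Over all loci, 1 locus, outside annotated genes, was called in each INO80 siRNA comparison. It became 0 with a minimum of 5 FPKM, a pseudocount of 0.1, annotated loci only (also with quantile normalization, added after seeing the data) and only the 2 groups compared. With 1 library left out, the count of called loci ranged from 0 to 7 in INO80 siRNA minus Sham-water, and from 0 to 1 in both other comparisons; 7 came without INO80 siRNA library 1. At an unadjusted p under 0.05, 16 members were lower in INO80 siRNA minus Sham-water with libraries scaled to the median library, in place of 5, which is 19.0% of members against 30.9% of annotated loci under that scaling. Same-numbered libraries correlated between -0.0673 and 0.129 in their deviations, and other pairs across groups between -0.138 and 0.084. No clear sign of pairing was seen, and whether same-numbered libraries share a batch was not tested. The replicate block gave 0 called loci in each comparison. FPKM alone give no depth and the coverage columns were not used, so no limit of detection was set here.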
